A study of Arabidopsis thaliana with 12 samples.

Results

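Roots of OX3, an Arabidopsis thaliana line that overexpresses the soybean proton-pumping pyrophosphatase gene GmVP2, were compared with roots of wild-type Columbia-0 (WT) at normal phosphate. OX3 is 1 transgenic line, so an effect of the transgene and an effect of its insertion site or of the line's history cannot be told apart. Both genotypes had grown for 10 d on solid MS medium with 1250 µM phosphate. The comparison used 6 of the 12 root libraries of the study, with replicates 2, 3 and 4 of each genotype. The other 6 libraries, from OX3 and WT on 6.25 µM phosphate, entered the same statistical fit and served as a second set of libraries for the same contrast. Of 25941 genes in the table, 18910 had a mean of at least 1 RPKM (reads scaled to exon length and library size) over the 12 libraries and were tested. GmVP2 itself is not a gene of the table, so the transgene was not measured, and no library carries a check of its genotype from the transgene.

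Proton-pumping pyrophosphatases of the vacuole split inorganic pyrophosphate, a by-product of many biosynthetic reactions, and use the energy to move protons into the vacuole. The proton gradient drives the exchange of ions and metabolites across the vacuolar membrane, and removal of pyrophosphate favours the biosynthetic reactions that release it. In Arabidopsis the main enzyme of this kind is AVP1, and plants that overexpress such pumps have been studied for root growth and nutrient uptake. The comparison asks which root transcripts differ in a plant that carries the soybean pump while phosphate is sufficient.

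The 3 OX3 libraries held 18786419 to 19941944 reads and the 3 WT libraries 17670350 to 20418541 reads, as recovered from the RPKM values. A gene of 1 kb with 3 reads corresponds to 0.150 to 0.160 RPKM in the OX3 libraries and 0.147 to 0.170 RPKM in the WT libraries. In a principal component analysis of the 6 libraries, the first component held 44.8% of the variance and separated the genotypes, with OX3 at 8.61 to 15.6 and WT at -18.3 to -4.26. Within each genotype the libraries differed by more than counting error, with a chi-square per degree of freedom of 2.59 to 5.51. The labelled tissue was checked by markers: all 15 root hair genes of the list, 20 of 22 endodermis and suberin genes and 11 of 12 xylem and phloem genes were above the minimum level. Of 12 shoot markers outside photosynthesis, 7 were above the minimum level too. That list summed to 94.2 to 135 RPKM in the normal phosphate libraries. The shoot meristem gene STM was at 0.0923 RPKM or less in every normal phosphate library.

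Between OX3 and WT, 587 genes (3.1% of those tested) were called at a limma adjusted p below 0.05, of which 259 (1.37%) were higher in OX3 and 328 (1.73%) were lower. Most differences were small. The median absolute log2 difference was 0.38 among the called genes and 0.11 among all tested genes, and 10 called genes differed by at least 1 on the log2 scale, 8 higher and 2 lower in OX3. For 32.8% of the tested genes no OX3 library lay within the WT range, with OX3 above WT for 17.7% and below it for 15.1%. All 587 called genes were among these 32.8%. That the genotypes separate in a called gene is therefore no further support for its call. The number of calls rested on single libraries. It was 1059 without WT replicate 2, 66 without WT replicate 3, 39 without WT replicate 4, 369 without OX3 replicate 2, 37 without OX3 replicate 3 and 8 without OX3 replicate 4. The 6 normal phosphate libraries fitted alone gave 1087 calls, and limma voom on the recovered reads gave 1124, of which 360 were higher and 764 lower in OX3.

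**Figure D1:**
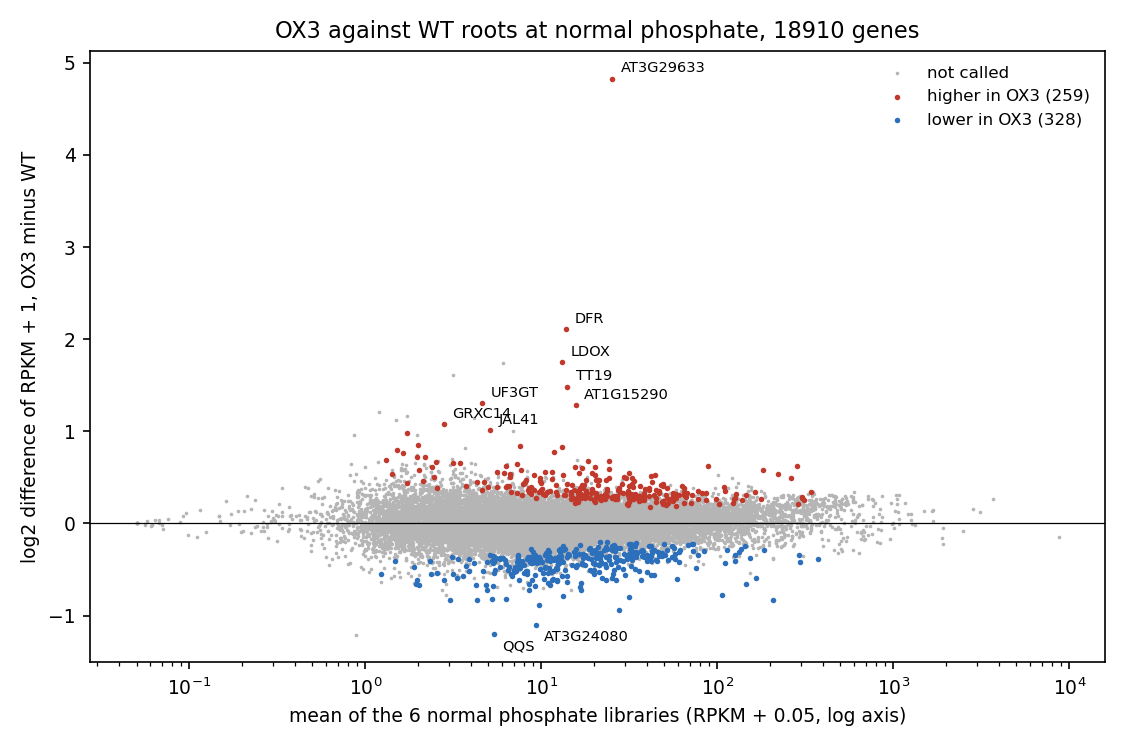
Log2 difference of RPKM + 1 (OX3 minus WT, vertical axis) against the mean level of the 6 normal phosphate libraries (RPKM + 0.05, log axis) for 18910 genes, with 259 genes called higher in OX3 in red, 328 called lower in blue and the others in grey. AT3G29633 lies far above all other genes at 4.83, followed among the called genes by the anthocyanin genes DFR, LDOX, TT19 and UF3GT at 2.11 to 1.3, while QQS at -1.2 lies at the bottom of the called genes.

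The difference depended on gene length. Across the tested genes the log2 difference had a Pearson correlation of -0.34 with the log2 exon length at normal phosphate, and of -0.33 at low phosphate, which describes genes that share libraries and carries no test. In the shortest of 10 equal groups of genes, with a median exon length of 712 bases, the median log2 difference was 0.11, and 50 genes were called higher and 9 lower in OX3. In the longest of these groups, with a median of 3834 bases, the median was -0.13, and 3 genes were called higher and 93 lower. Genes called higher in OX3 had a median exon length of 1295 bases and a median GC content of 40.3%. Genes called lower had 2477.5 bases and 42.75%, and all tested genes had 1756 bases and 41.11%. After each library was corrected for its own smooth dependence on length and GC content, 275 genes were called, 126 higher and 149 lower in OX3. The part of the length trend in the gene groups was not tested, and corrected counts are given beside the groups whose count of calls they change.

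**Figure D2:**
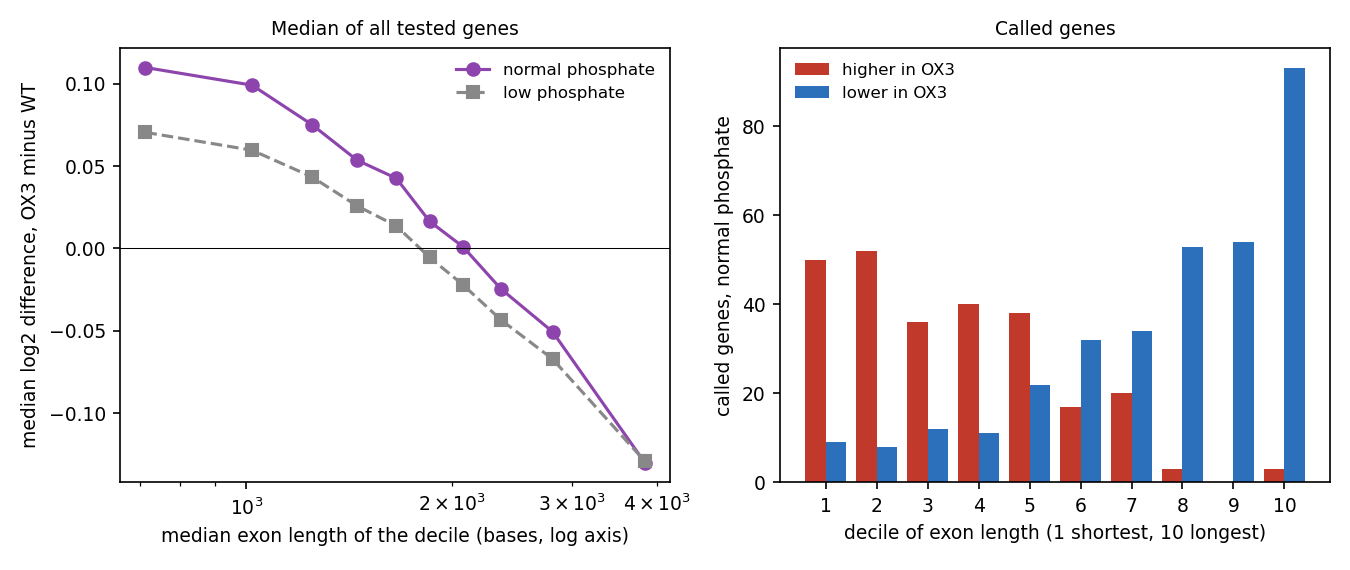
Left, median log2 difference (OX3 minus WT) in 10 equal groups of genes by exon length (bases, log axis) at normal phosphate (circles) and low phosphate (squares); right, genes called higher (red) and lower (blue) in OX3 at normal phosphate in each group. The median goes down with length at both phosphate levels, and calls of higher genes gather among short genes (52 in the second group from the left) while calls of lower genes gather among long ones (93 in the last group).

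AT3G29633, a gene annotated only as a predicted protein, stood apart from all other genes. It had 51.6, 49.6 and 47.9 RPKM in the OX3 libraries, against 0.864, 0.608 and 0.888 RPKM in the WT libraries. In reads this was 988, 965 and 975 in OX3 and 18, 12 and 16 in WT. All 3 OX3 libraries were thus far above all 3 WT libraries, the mean was 63.2 times as high, and the log2 difference was 4.83 ± 0.23 (SE, limma adjusted p = 1.05e-07). The gene lies on the minus strand of chromosome 3 (chr3:11452509-11453528, TAIR10 coordinates), and 1.41% of its 31-base stretches occur elsewhere in the genome. Of the 10 genes next to it in chromosome order, 5 on each side, 2 were tested. Of these 1, 5MAT at 52176 bases, was called higher. UGT79B4, a glycosyltransferase gene 3833 bases away, had 344, 358 and 421 reads in OX3 and 396, 385 and 413 reads in WT (log2 -0.10, limma adjusted p = 0.675). AT3G29635, on the other side at 12166 bases, had 8, 6 and 10 reads in OX3 and 9, 8 and 9 reads in WT. The 250 bases before its annotated start (chr3:11453529-11453778, minus strand) are printed because it has the largest difference. They hold none of the motifs searched in the promoters of the anthocyanin genes.
AT3G29633 promoter: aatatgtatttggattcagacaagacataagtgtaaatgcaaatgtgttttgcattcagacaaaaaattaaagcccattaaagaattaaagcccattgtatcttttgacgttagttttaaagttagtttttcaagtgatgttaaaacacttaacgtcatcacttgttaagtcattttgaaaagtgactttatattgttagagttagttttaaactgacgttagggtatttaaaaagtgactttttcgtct

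The late genes of anthocyanin synthesis formed the next group. Anthocyanins are pigments made from flavonoids: chalcone synthase (CHS) starts the flavonoid pathway, DFR and LDOX turn dihydroflavonols into anthocyanidins, glycosyltransferases and acyltransferases decorate these, and the glutathione S-transferase TT19 is needed for their storage in the vacuole. Of 14 tested members of the flavonoid and anthocyanin list, 5 (35.7%) were called higher in OX3 and 0 lower, and all 5 act at or after DFR. Of all tested genes 1.37% were called higher. The median log2 difference of the list was 0.08, against 0.02 over all tested genes.

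DFR (AT5G42800) had 13.9, 17.3 and 37.4 RPKM in OX3, against 8.41, 1.67 and 4.21 RPKM in WT. The genotypes did not overlap, but the libraries of each differed several-fold among themselves, with OX3 replicate 4 highest and WT replicate 3 lowest. The log2 difference was 2.11 ± 0.38 (SE, limma adjusted p = 0.0172). LDOX (AT4G22880) had 14.1, 15.6 and 32.3 RPKM in OX3, against 9.03, 2.51 and 5.21 RPKM in WT (log2 1.75 ± 0.32, limma adjusted p = 0.0192). TT19 (AT5G17220, GSTF12 in the table) had 16.2, 20.2 and 26.2 RPKM in OX3, against 10.8, 4.24 and 6.35 RPKM in WT (log2 1.48 ± 0.25, limma adjusted p = 0.011), and 108 of its bases overlap a gene on the opposite strand, so its value is uncertain. In all of these, OX3 replicate 4 was the highest library and WT replicate 3 the lowest. UF3GT (AT5G54060), which adds xylose to anthocyanidin glucosides, had 5.80, 5.85 and 8.81 RPKM in OX3, against 3.74, 1.13 and 2.02 RPKM in WT (log2 1.3 ± 0.23, limma adjusted p = 0.0145). The malonyltransferase gene 5MAT (AT3G29590), the fifth called member, had 2.14, 2.68 and 3.86 RPKM in OX3, against 1.91, 0.950 and 1.2 RPKM in WT (log2 0.72, limma adjusted p = 0.0435). It lies outside the naming rule and was named after its values were seen.

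The other 9 tested members, which include all early genes tested and some late ones, did not pass. CHS had 992, 943 and 1002 RPKM in OX3, against 1082, 937 and 933 RPKM in WT, so that the genotypes overlapped (log2 -0.00, limma adjusted p = 0.992). The flavonoid 3'-hydroxylase gene F3'H had 32.5, 35.1 and 34.5 RPKM in OX3, against 45.6, 44.5 and 39.1 RPKM in WT (log2 -0.33, limma adjusted p = 0.194). The late gene UGT75C1, an anthocyanin glucosyltransferase, had 4.04, 5.09 and 6.51 RPKM in OX3, against 4.28, 1.82 and 3.09 RPKM in WT (limma adjusted p = 0.0805). F3H is listed at 0 in all 6 libraries. The bHLH regulator TT8, below the minimum level, had 0.425, 0.419 and 1.08 RPKM in OX3, against 0.318, 0.155 and 0.226 RPKM in WT. The MYB regulator PAP1, also below it, had 0.768, 0.615 and 0.950 RPKM in OX3, against 0.442, 0.0466 and 0.255 RPKM in WT. For both regulators the OX3 libraries were above all WT libraries, at levels of few reads and with no test. Of all tested genes 17.7% separated in this direction. Both were named after their values were seen, out of the members of the 21-gene list that were not tested. Of those members only TT8, PAP1 and F3H are described here. The number of called list members was 6 without WT replicate 2, 2 without WT replicate 3, 5 without OX3 replicate 2, and 0 without WT replicate 4, OX3 replicate 3 or OX3 replicate 4. It was 4 with the length and GC correction, 2 with no filter on low levels, and 0 with a replicate block in the 6 normal phosphate libraries. Without the block those 6 libraries fitted alone gave 4 higher and 2 lower list members. With voom 5 were higher and 1 was lower.

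The 250 bases before the annotated starts of DFR, LDOX, UF3GT and 5MAT are printed because these genes were higher in OX3 together (DFR chr5:17166033-17166282, LDOX chr4:12006210-12006459, UF3GT chr5:21938397-21938646 and 5MAT chr3:11400333-11400582, all minus strand, TAIR10 coordinates and TAIR10.1 sequence). Capitals mark 3 motifs sought on both strands: the G-box CACGTG, AC elements spelled ACCNACC or ACCNAAC, and the I-box GATAAG.
DFR promoter: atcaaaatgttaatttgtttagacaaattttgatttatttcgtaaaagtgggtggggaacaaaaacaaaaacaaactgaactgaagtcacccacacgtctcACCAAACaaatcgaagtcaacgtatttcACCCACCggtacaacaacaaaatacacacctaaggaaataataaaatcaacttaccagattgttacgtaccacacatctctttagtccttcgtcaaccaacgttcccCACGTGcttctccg
LDOX promoter: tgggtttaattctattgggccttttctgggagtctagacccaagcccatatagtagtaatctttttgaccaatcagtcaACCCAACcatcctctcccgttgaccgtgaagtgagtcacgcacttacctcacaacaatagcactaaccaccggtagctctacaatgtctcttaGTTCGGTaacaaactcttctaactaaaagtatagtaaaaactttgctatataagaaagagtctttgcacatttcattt
UF3GT promoter: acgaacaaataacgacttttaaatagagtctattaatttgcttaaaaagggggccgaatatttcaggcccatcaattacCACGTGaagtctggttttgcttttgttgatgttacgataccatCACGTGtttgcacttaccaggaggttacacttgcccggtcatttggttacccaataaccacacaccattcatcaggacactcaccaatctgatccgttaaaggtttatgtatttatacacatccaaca
5MAT promoter: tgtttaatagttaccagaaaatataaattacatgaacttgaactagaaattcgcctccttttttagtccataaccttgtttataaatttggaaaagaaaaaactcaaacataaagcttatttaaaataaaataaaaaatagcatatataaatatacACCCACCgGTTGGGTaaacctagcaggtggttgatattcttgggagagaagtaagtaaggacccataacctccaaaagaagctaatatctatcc
DFR holds 1 G-box and 2 AC elements, LDOX 2 AC elements, UF3GT 2 G-boxes and 5MAT 2 AC elements. The window of TT19, which holds 1 AC element, runs into a neighbouring gene and is not printed. Of 18858 promoters of tested genes of this length, 7.28% hold a G-box, 20.4% an AC element and 12% an I-box. Of the 14 tested list members 4 hold a G-box and 9 an AC element, and of the 5 called members 2 and 4 do. Among 21 called photosynthesis genes, 3 promoters hold a G-box, 6 an AC element and 5 an I-box.

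**Figure D3:**
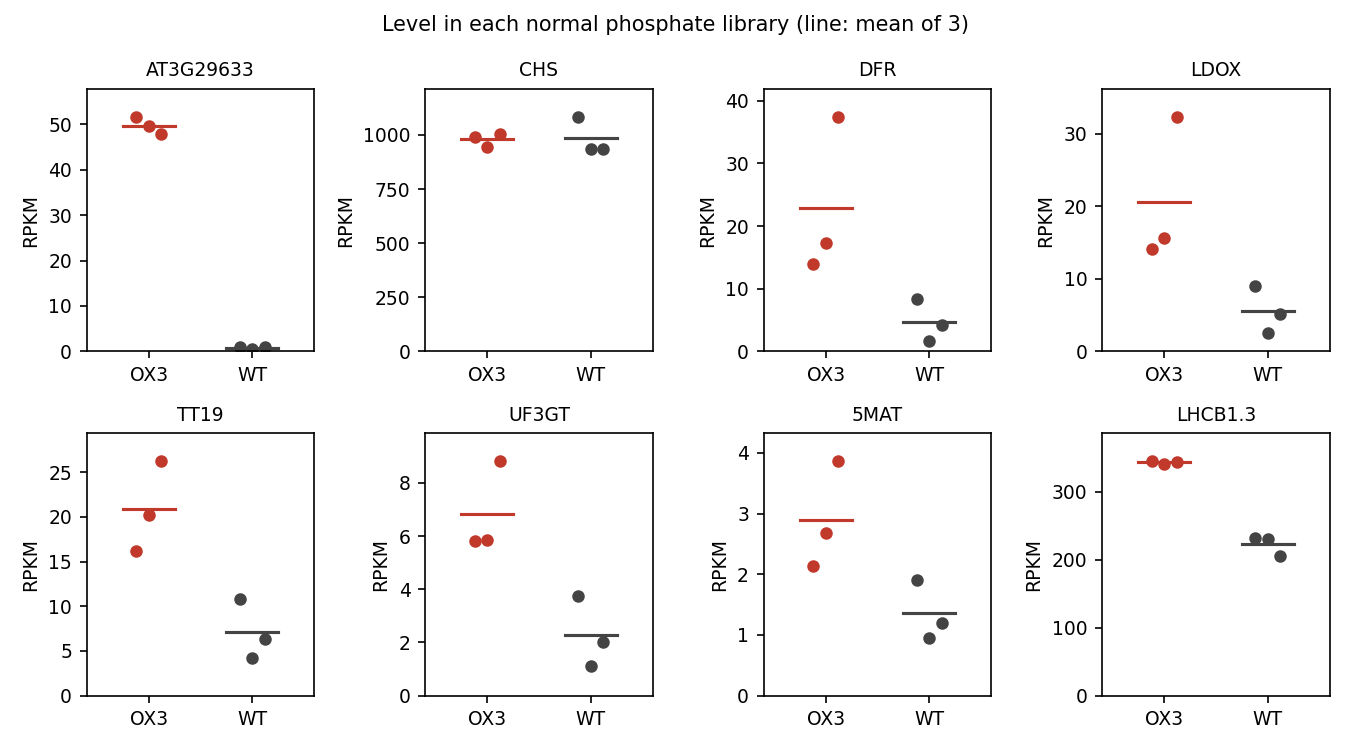
RPKM (vertical axes from 0) of AT3G29633, CHS, DFR, LDOX, TT19, UF3GT, 5MAT and LHCB1.3 in the 3 OX3 libraries (red, left) and the 3 WT libraries (dark grey, right) at normal phosphate, with replicates 2, 3 and 4 from left to right and a line at the mean. DFR, LDOX, TT19, UF3GT and 5MAT separate with wide spread and with the OX3 replicate 4 highest, LHCB1.3 separates with little spread (342 to 345 RPKM in OX3), and CHS overlaps.

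Of the gene lists and families, photosynthesis held the most called genes. Of 36 tested members of the list, 21 (58.3%) were called higher in OX3 and 0 lower, with a median log2 difference of 0.36 and a range of 0.09 to 0.78. Of all tested genes 1.37% were called higher. The summed level of the list was 1574, 1530 and 1636 RPKM in OX3, against 1242, 1121 and 1086 RPKM in WT. The called members spanned the light-harvesting proteins of both photosystems, subunits of photosystem I and photosystem II, plastocyanin and Rubisco. Roots can hold green plastids where they are lit.

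LHCB1.3 (AT1G29930), a chlorophyll-binding protein of the main light-harvesting complex, had 345, 342 and 344 RPKM in OX3, against 233, 231 and 206 RPKM in WT (log2 0.62 ± 0.09, limma adjusted p = 0.00785). All OX3 libraries were above all WT libraries, with a gap far wider than the spread within OX3. RBCS1A (AT1G67090), the main small subunit gene of Rubisco, had 217, 207 and 229 RPKM in OX3, against 167, 134 and 136 RPKM in WT (log2 0.58 ± 0.08, limma adjusted p = 0.00785). PSAO, a photosystem I subunit, had 37.7, 34.5 and 39.7 RPKM in OX3, against 27.9, 24.9 and 22.9 RPKM in WT (log2 0.55 ± 0.08, limma adjusted p = 0.00861). PSBW, a photosystem II subunit, followed at 34.2, 33.6 and 38.8 RPKM in OX3, against 27.0, 24.3 and 23.7 RPKM in WT (log2 0.49 ± 0.08, limma adjusted p = 0.0107). In these genes no OX3 library lay within the WT range, and the ratio of means was 1.54 for LHCB1.3 and 1.42 for PSBW. LHCB1.3 shares 32.1% of its 31-base stretches with other places in the genome, where its near-identical copies lie, and 108 of its bases overlap a gene on the opposite strand, so its value is uncertain. RBCS1A shares 2.63%.

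The uncalled members included the photosystem I subunit PSAF, with 34.9, 30.7 and 34.6 RPKM in OX3, against 30.8, 30.4 and 32.6 RPKM in WT (log2 0.09, limma adjusted p = 0.488). Markers of shoot tissue outside photosynthesis did not move with the list. Of 7 tested markers limma called 0, with 1 at an unadjusted p below 0.05 and 0 called by voom, and their median log2 difference was -0.15. Their summed level was 94.2 to 95.3 RPKM in OX3, against 101.7 to 135 RPKM in WT. The epidermal gene PDF1 was at 42.6, 42.5 and 45.3 RPKM in OX3, against 53.3, 73.9 and 51.2 RPKM in WT (limma adjusted p = 0.158). The trichome gene GL1 was listed at 0 in all 3 OX3 libraries and at 0 to 0.120 RPKM in WT. The photosynthesis list held 22 called members without WT replicate 2, 3 without WT replicate 3, 3 without WT replicate 4, 13 without OX3 replicate 2, 5 without OX3 replicate 3 and 0 without OX3 replicate 4. The list median stayed between 0.33 and 0.41 in these fits. With the length and GC correction 19 members were called higher, with a median of 0.36. The median exon length of the tested members was 1236 bases.

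**Figure D4:**
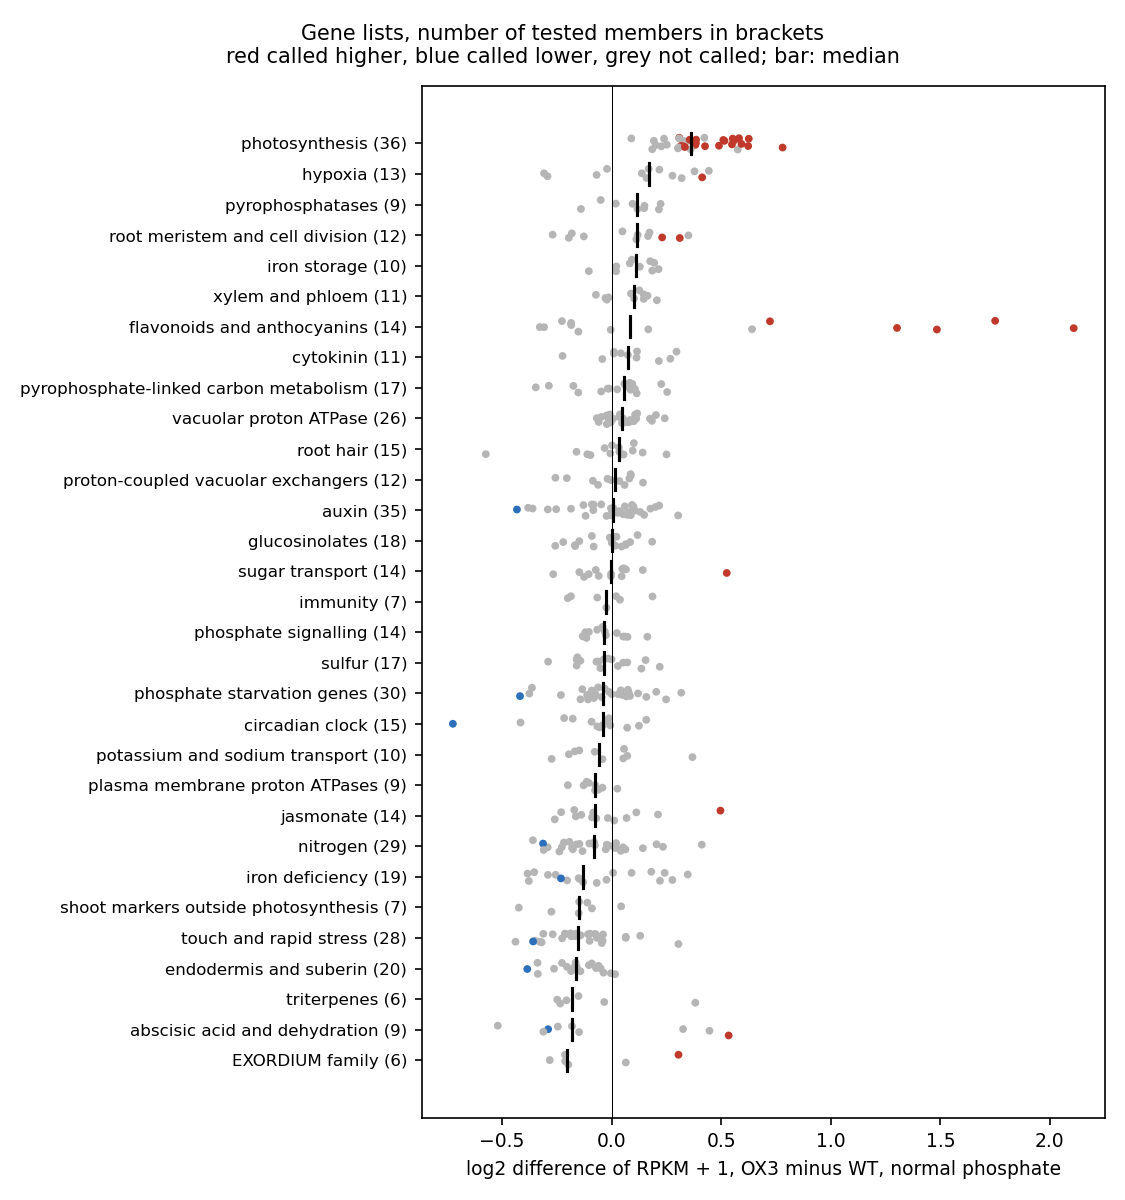
Log2 difference of RPKM + 1 (OX3 minus WT, normal phosphate, horizontal axis) for the tested members of each gene list with at least 5 of them, ordered by their median (black bar), with members called higher in red, called lower in blue and uncalled in grey. Photosynthesis stands at the top with a median of 0.36 and 21 red points, and the flavonoid list has 5 red points that reach 2.11 while its median is 0.08.

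The other genes among the 12 with the highest differences were of mixed function. AT1G15290, a tetratricopeptide repeat protein gene, had 22.8, 21.1 and 23.9 RPKM in OX3, against 8.64, 8.20 and 9.17 RPKM in WT (log2 1.29 ± 0.11, limma adjusted p = 0.000149). GRXC14, a glutaredoxin gene, had 4.12, 4.37 and 3.67 RPKM in OX3, against 1.72, 1.74 and 0.827 RPKM in WT (log2 1.08 ± 0.17, limma adjusted p = 0.0106). JAL41, a jacalin-like lectin gene, had 6.42, 6.76 and 7.85 RPKM in OX3, against 2.70, 2.11 and 4.41 RPKM in WT (log2 1.01 ± 0.16, limma adjusted p = 0.0106). In these 3 genes no OX3 library lay within the WT range. The rest were the non-coding gene AT4G09240 (log2 0.98), the gene AT2G34620 of a mitochondrial transcription termination factor family (0.85), the beta-glucosidase gene BGLU1 (0.84) and AT5G38980, of unknown function (0.83). BGLU1 was the least firm, since OX3 replicate 2 and WT replicate 2 lay at 7.20 and 7.18 RPKM (limma adjusted p = 0.0474). Of these 12 genes, 3 were called without OX3 replicate 3 or without OX3 replicate 4, 5 without WT replicate 4, 9 without WT replicate 3, and 12 without WT replicate 2 or OX3 replicate 2.

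Next to AT1G15290 on chromosome 1, AT1G15280, which ends 6 bases from it on the opposite strand, was called lower in OX3, with 1398, 1235 and 1354 reads in OX3 and 1799, 1809 and 1629 reads in WT (log2 -0.39, limma adjusted p = 0.0107). MBD10, 10460 bases from AT1G15290, was called lower as well. Of the 10 genes next to AT1G15290 in chromosome order, 8 were tested and these 2 were called.

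The genes with the lowest differences included QQS (AT3G30720), an orphan gene known for its part in starch and protein allocation. QQS had 2.63, 3.05 and 2.55 RPKM in OX3, against 5.42, 11.0 and 7.25 RPKM in WT (log2 -1.2 ± 0.18, limma adjusted p = 0.00785). AT3G24080, annotated to the KRR1 family, whose yeast member acts in ribosome assembly, had 6.36, 4.79 and 5 RPKM in OX3, against 9.51, 11.1 and 18.7 RPKM in WT (log2 -1.10 ± 0.20, limma adjusted p = 0.0161). AT1G75945, of unknown function, had 21.6, 18.3 and 16.0 RPKM in OX3, against 36.8, 36.3 and 36.3 RPKM in WT (log2 -0.94 ± 0.15, limma adjusted p = 0.0107). All 3 had every OX3 library below every WT library, as did every gene called lower in OX3. DOT1, named for its role in leaf vein patterning, was the most abundant of the 12, with 154, 141 and 148 RPKM in OX3, against 241, 237 and 319 RPKM in WT (log2 -0.83 ± 0.10, limma adjusted p = 0.0027). AT3G18790, annotated as a splicing factor of the ISY1 type, had 10.6, 8.53 and 9.15 RPKM in OX3, against 15.5, 16.8 and 18.6 RPKM in WT (log2 -0.79 ± 0.09, limma adjusted p = 0.00176). MBD10, a methyl-CpG-binding domain protein gene, had 25.5, 20.9 and 21.7 RPKM in OX3, against 34.0, 39.7 and 47.7 RPKM in WT (log2 -0.80 ± 0.12, limma adjusted p = 0.00785). AT3G49601 (log2 -0.88), AT5G46730 (-0.83), AT3G05170 (-0.83), AT5G60030 (-0.82), the chaperone gene JJJ1 (-0.82) and the extensin gene EXT3 (-0.78), which encodes a cell wall glycoprotein, made up the rest of the 12. Of EXT3, 522 bases overlap a gene on the other strand and 22.4% of the 31-base stretches occur elsewhere, so its value is uncertain. Of the 12, 2 were called without OX3 replicate 4, 4 without OX3 replicate 3, 4 without WT replicate 4, 7 without WT replicate 3, 10 without OX3 replicate 2 and 12 without WT replicate 2.

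Chaperone and WRKY genes were called lower and none of them higher. Of 70 tested genes annotated as heat shock proteins or factors, 7 (10%) were lower in OX3 and 0 higher. Of all tested genes 1.73% were lower. The median log2 difference of the heat shock genes was -0.09. HSP90-1, a cytosolic chaperone, had 15.5, 16.4 and 15.5 RPKM in OX3, against 21.6, 27.1 and 22.3 RPKM in WT (log2 -0.55 ± 0.08, limma adjusted p = 0.00785). HSP23.5, a small heat shock protein gene, had 17.1, 19.0 and 18.1 RPKM in OX3, against 27.8, 28.2 and 28.7 RPKM in WT (log2 -0.62 ± 0.09, limma adjusted p = 0.00789). The OX3 libraries of both genes were below all WT libraries, for HSP23.5 by more than the spread within either genotype. AT4G02450, an HSP20-like chaperone, was at 46.6 ± 3.83 RPKM in OX3 and 71.2 ± 7.75 RPKM in WT (SD, n = 3 each; log2 -0.60), and the disaggregase gene CLPB4 at 10.9 ± 0.405 RPKM in OX3 and 14.7 ± 1.02 RPKM in WT (log2 -0.40). The count of lower heat shock genes was 4 with the length and GC correction, 8 without WT replicate 2, 6 without OX3 replicate 2, 3 without WT replicate 3, WT replicate 4 or OX3 replicate 3, and 0 without OX3 replicate 4.

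Of 56 tested WRKY transcription factor genes, a plant family known for defence and stress responses, 9 (16.1%) were lower in OX3 and 0 higher. Their median was -0.11. Of all tested genes 1.73% were lower. WRKY61 had 4.04, 3.03 and 3.46 RPKM in OX3, against 5.59, 6.36 and 6.42 RPKM in WT (log2 -0.66 ± 0.13, limma adjusted p = 0.0222). WRKY36 had 19.4, 17.2 and 17.8 RPKM in OX3, against 22.7, 24.7 and 27.5 RPKM in WT (log2 -0.44 ± 0.08, limma adjusted p = 0.0174). WRKY57 (log2 -0.37) and WRKY6 (-0.36), which in Arabidopsis represses the phosphate exporter gene PHO1, were the other named members. Of WRKY61, 216 bases overlap a non-coding RNA gene. None of the OX3 values of WRKY61 and WRKY36 reached the WT range. With the length and GC correction 6 WRKY genes were called, 12 without WT replicate 2, 7 without OX3 replicate 2, and 0 without any 1 of the other 4 libraries.

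The Arabidopsis relatives of the transgene did not differ between the genotypes by the test. AVP1 had 191, 182 and 186 RPKM in OX3, against 182, 179 and 163 RPKM in WT (log2 0.09 ± 0.06, limma adjusted p = 0.336). VHP2;1, a Golgi pump, had 28, 26.3 and 28.5 RPKM in OX3, against 28.5, 29.6 and 27.8 RPKM in WT (log2 -0.05 ± 0.07, limma adjusted p = 0.702), and 783 of its bases overlap a gene on the opposite strand. VHP2;2 had 7.05, 7.62 and 7.55 RPKM in OX3, against 6.85, 6.90 and 6.03 RPKM in WT (log2 0.15 ± 0.08, limma adjusted p = 0.289). For VHP2;2 the OX3 libraries were all above the WT libraries, as they were narrowly for AVP1, while VHP2;1 overlapped. AVP1 and VHP2;2 overlap other genes by 153 to 302 bases, so their values are uncertain. Of 9 tested pyrophosphatases, soluble ones included, 0 were called by limma and 0 by voom, with 2 at an unadjusted p below 0.05. In 5 of the 9 all OX3 libraries were above all WT libraries, where 17.7% of all tested genes separated this way. The smallest p belonged to the soluble PPA1, with 80.2, 88.9 and 84.8 RPKM in OX3, against 78.7, 70.3 and 69.5 RPKM in WT (log2 0.22, limma adjusted p = 0.0625), a gene of which 283 bases overlap a non-coding RNA. Without WT replicate 2, 2 pyrophosphatases were called higher.

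Other proton pumps and the vacuolar exchangers gave no limma calls either, while 1 sugar transport gene was called. Over all tested genes 3.1% were called. The vacuolar proton ATPase had 0 of 26 subunit genes called by limma, 1 by voom and 6 at an unadjusted p below 0.05, all higher in OX3. Its subunit gene VHA-c4, a part of the membrane ring, had 82.4, 91.5 and 86.9 RPKM in OX3, against 72.2, 78.2 and 69.7 RPKM in WT (log2 0.24, limma adjusted p = 0.0505). VHA-c4 separated the genotypes and missed the threshold narrowly, and 1 subunit gene was called without OX3 replicate 2. The plasma membrane proton ATPases had 0 of 9 called by limma and by voom, with 1 at an unadjusted p below 0.05. AHA2, the main root pump of that family, had 776, 752 and 736 RPKM in OX3, against 826, 913 and 864 RPKM in WT (log2 -0.20, limma adjusted p = 0.169). Vacuolar exchangers had 0 of 12 called by limma and by voom, with 3 at an unadjusted p below 0.05, and CAX4, a cation exchanger, was at 5.68 ± 0.0919 RPKM in OX3 and 6.71 ± 0.193 RPKM in WT (SD, n = 3 each; limma adjusted p = 0.133). After the length and GC correction 1 exchanger was called higher. Enzymes of pyrophosphate-linked carbon metabolism had 0 of 17 called by limma and by voom, with 5 at an unadjusted p below 0.05. Of these PFP-beta2, a pyrophosphate-dependent phosphofructokinase subunit, was at 14.4 ± 0.593 RPKM in OX3 and 12.2 ± 1.05 RPKM in WT (limma adjusted p = 0.0768). In sugar transport, 1 of 14 genes was called higher: SUC2, the sucrose carrier of phloem loading, had 26.7, 20.1 and 24.7 RPKM in OX3, against 18.2, 16.3 and 14.2 RPKM in WT (log2 0.52 ± 0.10, limma adjusted p = 0.0174). SUC2 was not called without WT replicate 3, WT replicate 4 or OX3 replicate 4.

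Phosphate genes were nearly flat at normal phosphate. Of 30 tested phosphate starvation genes 0 were higher and 1 was lower in OX3, where 1.73% of all tested genes were lower. The median log2 difference of the list was -0.04. The called one, the high-affinity uptake carrier gene PHT1;4, had 18.0, 19.9 and 17.4 RPKM in OX3, against 25.2, 25.4 and 24.4 RPKM in WT (log2 -0.42 ± 0.09, limma adjusted p = 0.0285). PHT1;4 separated the genotypes, and its call was lost with the length and GC correction and without any 1 library except WT replicate 2. Phosphate signalling had 0 of 14 called by limma and by voom, with 1 at an unadjusted p below 0.05. The smallest p belonged to LPR2, a ferroxidase of root phosphate sensing, at 21.2 ± 0.847 RPKM in OX3 and 23.3 ± 0.749 RPKM in WT (SD, n = 3 each; limma adjusted p = 0.141).

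Genes of other nutrients gave few calls in the fit of all 12 libraries, where 3.1% of all tested genes were called. Of 29 nitrogen genes 1 was lower, NRT3.1, the partner protein of the high-affinity nitrate carriers, at 130, 109 and 116 RPKM in OX3, against 142, 153 and 147 RPKM in WT (log2 -0.31 ± 0.08, limma adjusted p = 0.0464). Although 1 nitrogen gene was called, 14 of the 29 had all OX3 libraries below all WT libraries, where 15.1% of all tested genes did. Of 19 iron deficiency genes 1 was lower, the ubiquitin ligase gene BTS, which restrains iron uptake, at 15.8, 14.6 and 15.1 RPKM in OX3, against 17.7, 18.3 and 18.0 RPKM in WT (log2 -0.23 ± 0.06, limma adjusted p = 0.0489). Iron storage had 0 of 10 called by limma and by voom (2 at an unadjusted p below 0.05), sulfur had 0 of 17 by both (6), and potassium and sodium transport had 0 of 10 by limma and 1 by voom (3). Their smallest adjusted p-values were those of the ferritin FER3 (log2 0.21, 0.0679), the sulfate carrier SULTR1;2 (-0.29, 0.105) and the potassium channel subunit KC1 (-0.27, 0.0627). With the length and GC correction no member of these 5 lists was called, and without WT replicate 3, WT replicate 4, OX3 replicate 3 or OX3 replicate 4 none was called either. The 6 normal phosphate libraries fitted alone gave 4 lower nitrogen genes and 5 lower iron deficiency genes, and voom gave 6 and 3. At an unadjusted p below 0.05 in limma, 2 nitrogen genes were higher and 11 lower. For iron deficiency 1 was higher and 5 were lower.

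Hormone and stress lists held at most 2 called genes each, where 3.1% of all tested genes were called. The auxin list had 1 of 35 called, ARF7 (NPH4 in the table), an activator of lateral root formation, which was lower at 8.68, 7.21 and 7.77 RPKM in OX3, against 9.99, 11.3 and 11.7 RPKM in WT (log2 -0.43 ± 0.10, limma adjusted p = 0.0403). The clock list had 1 of 15 called, GI, which peaks late in the day, with 3.62, 3.64 and 3.03 RPKM in OX3, against 5.93, 6.60 and 6.42 RPKM in WT (log2 -0.73 ± 0.15, limma adjusted p = 0.0284). Both separated the genotypes in all libraries, and neither was called with the length and GC correction. Of ARF7, 254 bases overlap a gene on the opposite strand. Their exon lengths were 4432 bases for ARF7 and 4303 for GI. The hypoxia list had 1 of 13 called, the regulator LBD41, higher at 20.6, 19.6 and 19.7 RPKM in OX3, against 15.3, 14.2 and 14.8 RPKM in WT (log2 0.41 ± 0.07, limma adjusted p = 0.0107), and this call held with the correction. In the dehydration list the cold- and ABA-induced gene KIN2 was higher (log2 0.53, limma adjusted p = 0.04) and the dehydrin gene ERD10 was lower (-0.29, 0.0464). The jasmonate-induced gene VSP2 was higher at 308 ± 21.2 RPKM in OX3 and 219 ± 32.7 RPKM in WT (SD, n = 3 each; limma adjusted p = 0.0487), 1 of 14 in its list. In the touch list MYB70 was lower (log2 -0.36, limma adjusted p = 0.0314), 1 of 28. Of the 28, 24 had log2 differences below 0, and 11 had all OX3 libraries below all WT libraries, where 15.1% of all tested genes did. Cytokinin genes had 0 of 11 called by limma and by voom (2 at an unadjusted p below 0.05), with the smallest p for ARR3 (log2 0.30, limma adjusted p = 0.0994). Immunity genes had 0 of 7 by both (3), with the smallest p for EDS1 (-0.20, 0.0926). After the length and GC correction the dehydration list had 0 higher and 1 lower and the jasmonate list 0 of either. None of the called genes of this paragraph was called without WT replicate 4, OX3 replicate 3 or OX3 replicate 4, nor without WT replicate 3.

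Markers of root cell types and growth genes gave a mixed picture, where 3.1% of all tested genes were called. In bulk roots, fewer cells of a type and less RNA per cell cannot be told apart. Among 12 meristem and division genes the mitotic kinases CDKB1;1 and CDKB2;2 were higher, CDKB1;1 at 21.3, 22.3 and 21.8 RPKM in OX3, against 19.2, 17.9 and 18.2 RPKM in WT (log2 0.23 ± 0.05, limma adjusted p = 0.0374). Both overlap genes on the opposite strand, by 71 and 192 bases, and neither was called with the length and GC correction or without any 1 of WT replicates 3 and 4 and OX3 replicates 2, 3 and 4. Of 20 endodermis and suberin genes 1 was lower, KCS20, a fatty acid elongase, at 27.7, 26.3 and 24.7 RPKM in OX3, against 29.2, 39.1 and 35.9 RPKM in WT (log2 -0.39 ± 0.10, limma adjusted p = 0.0499). In that list 19 of 20 log2 differences were below 0, and with the length and GC correction 0 genes were called. Root hair genes had 0 of 15 called by limma and 1 by voom, with 1 at an unadjusted p below 0.05; the extensin-like LRX2 had 0.929 ± 0.102 RPKM in OX3 and 1.87 ± 0.189 RPKM in WT (SD, n = 3 each; limma adjusted p = 0.0529). Xylem and phloem genes had 0 of 11 called by both (1), and root cap genes had 0 of 3 called by both (0), with the smallest p for the sieve element gene SEOR1 (limma adjusted p = 0.201) and the cap regulator BRN2 (0.537). The single tested seed storage gene, SESA4, was at 0.581 ± 0.132 RPKM in OX3 and 0.610 ± 0.202 RPKM in WT (limma adjusted p = 0.955).

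Cell wall loosening proteins were higher where they were called. Of 23 tested expansin genes, whose products loosen the wall during growth, 4 (17.4%) were higher in OX3 and 0 lower, with a median of 0.19. Of all tested genes 1.37% were higher. EXPA6 had 67.1, 63.4 and 62.4 RPKM in OX3, against 50.9, 52.6 and 50.4 RPKM in WT (log2 0.32 ± 0.06, limma adjusted p = 0.0247). EXPA1 had 76.7, 70.9 and 70.0 RPKM in OX3, against 57.0, 61.4 and 59.7 RPKM in WT (log2 0.28 ± 0.06, limma adjusted p = 0.0255). EXLB1 (log2 0.50) and EXPA10 (0.37) were the others, and no OX3 library of EXPA6 or EXPA1 fell into the WT range. XTH9, 1 of 28 xyloglucan endotransglucosylase genes, was higher (log2 0.31, limma adjusted p = 0.0467), as was EXL3, 1 of 6 EXORDIUM family genes (0.30, 0.0359). The EXORDIUM family as a whole had a median of -0.21. In 4 of its 6 genes all OX3 libraries were below all WT libraries, where 15.1% of all tested genes were. Of 31 aquaporins 2 were higher, PIP2-5 at 11.1 ± 0.371 RPKM in OX3 and 8.49 ± 0.357 RPKM in WT, and PIP1-3 at 333 ± 20.8 RPKM in OX3 and 274 ± 11.7 RPKM in WT (SD, n = 3 each). With the length and GC correction 3 expansins and 1 aquaporin were called higher, and XTH9 and EXL3 were not. The expansin count was 5 without WT replicate 2, 1 without OX3 replicate 2 and 0 without any 1 of the other 4 libraries.

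Other large families held few called genes in the fit of all 12 libraries, where 3.1% of all tested genes were called. Cytosolic ribosomal proteins had 1 of 211 tested genes called, RPP3A, at 113, 132 and 127 RPKM in OX3, against 105, 90.8 and 85.2 RPKM in WT (log2 0.40 ± 0.10, limma adjusted p = 0.0454). Yet 183 of the 211 had all OX3 libraries above all WT libraries, where 17.7% of all tested genes did, and the median log2 difference was 0.23. The summed level of the family was 64160, 70927 and 66253 RPKM in OX3, against 60674, 56747 and 53810 RPKM in WT. These are short genes, with a median exon length of 962 bases, and with the length and GC correction limma called 0 and the median was 0.16. Without the correction 141 had an unadjusted p below 0.05, voom called 14 higher, and the 6 normal phosphate libraries fitted alone gave 62 higher. Without WT replicate 2 the count was 6. Cytochrome P450 genes had 1 higher, CYP708A3 (log2 0.58, limma adjusted p = 0.0174), and 3 lower of 151, led by CYP89A5 (-0.36, 0.0095), which shares 48.6% of its 31-base stretches with other places and is uncertain. NAC factors had 2 of 72 lower, NAC082 (-0.31) and NAC68 (-0.36), and AP2/ERF factors 1 of 91 lower, ERF011 (-0.25, 0.0398). ABC transporters had 0 of 80 called by limma and 4 lower by voom, with 20 at an unadjusted p below 0.05, and class III peroxidases 0 of 56 by limma and 2 lower by voom, with 13. Glucosinolate genes had 0 of 18 and triterpene genes 0 of 6 called by both, with 3 and 0 at an unadjusted p below 0.05. Of 381 tested non-coding RNA genes 5 were higher and 3 lower (2.1% called). Among them were TAS2 (log2 0.35), AT1G09897 (0.80), which lies wholly within a gene of the other strand, and AT3G52748 (-0.43). After the length and GC correction 1 non-coding gene was higher and 2 were lower, 2 P450 genes were higher and 2 lower, and 0 NAC genes were called. The 6 libraries alone gave 16 higher and 4 lower non-coding genes, 2 higher and 8 lower P450 genes, 7 lower ABC transporters and 4 lower peroxidases. Without OX3 replicate 4 the called genes of these families came to 1 non-coding gene.

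The same contrast in the low phosphate libraries, which share no library with it, gave 8 called genes (0.0423% of those tested), 3 higher and 5 lower in OX3. No gene (0%) was called by limma for a difference between the phosphate levels in the OX3 minus WT contrast, with 1351 at an unadjusted p below 0.05, a smallest adjusted p of 0.379 and 0 called by voom. Since an uncalled difference does not show equality, no gene is said here to differ from WT at 1 phosphate level alone. Of the 587 genes called at normal phosphate, 526 (89.6%) had the same sign at low phosphate, where 66.6% of all tested genes did, and 83.3% and 61.1% did with the length and GC correction. The genes called higher had a median log2 difference of 0.11 at low phosphate, against 0.35 at normal phosphate, and the genes called lower had -0.20, against -0.40. These genes were chosen by their normal phosphate values, which the choice makes larger. The medians therefore do not compare the size of the difference between phosphate levels. The Pearson correlation of the log2 differences across all tested genes was 0.44, and 0.34 with the correction; genes are not independent replicates.

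Only 4 genes were called in the same direction at both levels in the fit of all 12 libraries. AT3G29633 had 34.9, 51.8 and 28.1 RPKM in OX3 at low phosphate, against 0.504, 2.03 and 0.654 RPKM in WT (log2 4.28, limma adjusted p = 5.35e-07). AT1G15290 had 15.4, 11.0 and 16.3 RPKM in OX3, against 6.69, 6.07 and 6.20 RPKM in WT (log2 1.04, limma adjusted p = 0.00204). JAL41 had 62.7, 56.7 and 64.5 RPKM in OX3, against 22.6, 30.5 and 23.4 RPKM in WT (log2 1.24, limma adjusted p = 0.00825). These 3 genes kept OX3 above WT in every library at both levels, although JAL41 was far more abundant at low phosphate. ARP9, an actin-related protein gene, was lower in OX3 at both levels, with 8.55, 7.78 and 7.78 RPKM in OX3 against 13.0, 12.5 and 11.0 RPKM in WT at normal phosphate (log2 -0.54 ± 0.08, limma adjusted p = 0.0095) and a log2 difference of -0.67 at low phosphate (limma adjusted p = 0.00761). At normal phosphate all 4 were called without any 1 library, except that JAL41 and ARP9 were not without OX3 replicate 3 or OX3 replicate 4.

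The anthocyanin gene DFR was at low levels on low phosphate. DFR had 0.747, 0.395 and 0.487 RPKM in OX3 there, against 0.913, 0.324 and 0.585 RPKM in WT (log2 -0.05), and LDOX had a log2 difference of 0.16. The photosynthesis list had a median of 0.02 at low phosphate, with 0 of 36 members called by limma and 20 differences above 0, and its summed level was 583, 620 and 643 RPKM in OX3, against 618, 522 and 586 RPKM in WT. LHCB1.3 had 88.8, 102 and 110 RPKM in OX3 at low phosphate, against 88.8, 75.0 and 92.7 RPKM in WT (log2 0.23, limma adjusted p = 0.269). QQS had 6.14, 6.60 and 5.15 RPKM in OX3 at low phosphate, against 12.4, 13.5 and 10.12 RPKM in WT, again with no overlap, though not called (log2 -0.90, limma adjusted p = 0.137).

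**Figure D5:**
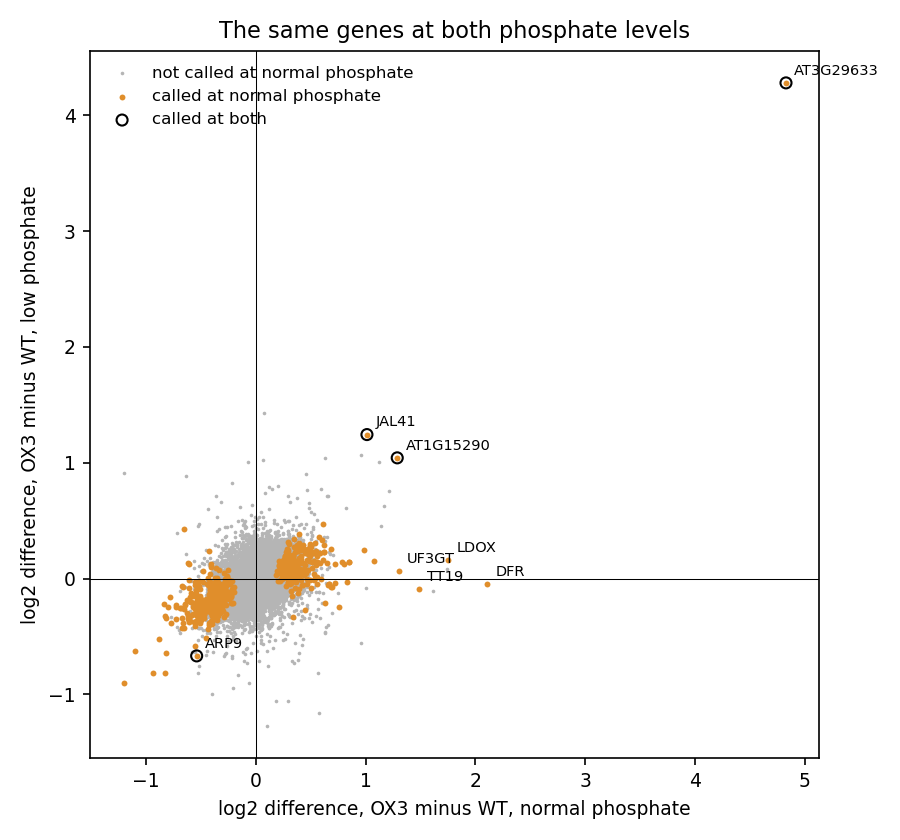
Log2 difference of RPKM + 1 (OX3 minus WT) at normal phosphate (horizontal axis) and at low phosphate (vertical axis) for all tested genes in grey, the 587 genes called at normal phosphate in orange, and the 4 called in the same direction at both levels circled. AT3G29633 lies at 4.83 and 4.28, apart from all others, while DFR, LDOX, TT19 and UF3GT lie to the right at 1.3 or more but within 0.16 of 0 on the vertical axis.

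Of the 25941 genes, 18 had fewer than 3 reads in each WT library and at least 3 in each OX3 library, and 23 the reverse. These genes had few reads at normal phosphate in either genotype. LBD35 (AT5G35900), a gene of the LOB domain family of transcription factors on chromosome 5 that was below the minimum level, headed these. LBD35 had 1 read in each OX3 library, against 17, 15 and 15 reads in WT. At low phosphate it had 2, 0 and 0 reads in OX3, against 7, 3 and 5 reads in WT, so that OX3 was lower in both sets of libraries. JAL41 lies 61147 bases from it, and RRP6L2, 147 bases away, had 1163, 1128 and 1272 reads in OX3 and 1397, 1446 and 1323 reads in WT (log2 -0.23, limma adjusted p = 0.0558). The next in that order had means of 6.67 reads or fewer: AT5G16350 had 6, 6 and 8 reads in OX3 and 1, 2 and 2 in WT, and PAP13, a purple acid phosphatase gene, had 4, 10 and 4 reads in OX3 and 1, 1 and 2 in WT. Of the other 7 genes named by the rule, AT5G24206 had more reads in OX3, and AT5G45850, AT2G07641, AT4G11543, AT2G19146, LECRK44 and AT5G54950 had more in WT, with 5.33 to 6 reads on average in the higher genotype. These are counts of reads with no test.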

How the data were processed

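The deposited file, made by the authors, gives RPKM values of 25941 genes for 12 root libraries. HTSeq 0.6.0 and TAIR10 are named per the submitters' processing notes; strand, read pairing and aligner are not given in the sources used here. RNA came from a CTAB-PBIOZOL extraction and libraries from BGI's RNA-Seq kit, per the labels' protocols. Of the gene identifiers 25688 matched the TAIR10.1 reference, 25671 with the same coordinates. Whole reads were recovered from RPKM: all 25941 genes gave whole reads within 0.01 of a read, and totals were 17670350 to 20418541 reads. Floors in reads cover counting error only.

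Genes were tested with limma 3.58.1 (trended prior variance; R 4.3.3) on log2(RPKM + 1), which understates changes of low genes. It was fitted to the 12 libraries of 4 groups, over 18910 genes at or above a mean level of 1 RPKM. Calls are two-sided at a Benjamini-Hochberg adjusted p below 0.05. The table holds no counts, so no count model was the main test. Nothing in the labels says that replicates came from separate plants, so p-values reflect only the variation among these libraries, possibly technical. Alternatives were median-ratio size factors, a pseudocount of 0.1, no filter, the replicate number as a block, the 6 libraries alone, a minimum absolute log2 difference of 1, limma voom on the recovered reads (1124 genes called, with all values whole), a length and GC correction, and leaving out each library. The fit was tried on simulated reads, with an equal relative spread beyond counting error for all genes and no length trend. It recovered 98 of 100 changes of 1 on the log2 scale and 46 of 100 changes of 0.5, with 10 false calls. These settings are simpler than the data, so the simulation does not measure the error of the calls reported here.

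Named genes are the 12 highest and 12 lowest called ones without overlap, up to 4 called members of each list or family with the smallest p, genes called at both phosphate levels, AVP1 and its relatives, the smallest p of a list without calls, and up to 10 genes with at least 3 reads in each library of 1 genotype alone. Families were taken by words of the annotation. The list members CHS, F3'H, UGT75C1, F3H, TT8, PAP1 and PSAF, and the neighbouring genes, stand outside this rule and were named after their values were seen. The comparison, the 33 gene lists and the rule were chosen with earlier results of these data known. Promoters are the 250 bases before a gene's start in TAIR10.1, from RefSeq.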

Additional observations from a re-analysis of the deposited data

How the results depend on the processing

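The number of genes that differed between OX3 and WT at normal phosphate was 587 and changed by more than 1.5 times under most alternatives. It was 152 with no filter on low levels, 225 with the replicate block, 1087 in the 6 normal phosphate libraries alone, 1124 with voom on recovered reads, 275 with the length and GC correction, and 10 with an absolute log2 difference of at least 1. Added after the data were seen, the replicate block in the 6 libraries alone gave 74, and the length and GC correction with the replicate block gave 143. Leaving out 1 library at a time gave 8 to 1059. Median-ratio size factors gave 592 and a pseudocount of 0.1 gave 523. With voom 32.0% of the calls were higher in OX3, against 44.1% in the fit reported. The cause of these differences was not tested. The filter leaves out 7031 genes, and a fit without 1 library rests on fewer libraries, but neither was tested as a cause. Same-numbered OX3 and WT libraries deviated from their group means with correlations of -0.143, -0.055 and 0.037, and differently numbered ones with -0.106 to 0.151. Only WT replicate 4 correlated best with its own number. Deviations from means of 3 libraries are too few to decide whether the numbers pair the libraries. The genes called in the same direction at both phosphate levels were 4, or 2 with the length and GC correction with the replicate block, and 2 to 5 with 1 library left out. The genes whose difference changed between phosphate levels were 0 under every alternative that could be fitted; the fit of the 6 libraries alone cannot give these 2 numbers. Over the 93 named genes and all alternatives, 417 values lost the call with the same direction and 16 gained it. No named gene that was called changed sign, which the lack of overlap between the groups largely fixes. In all 15 alternatives that refit the test 8 genes were called: AT3G29633, AT1G15290, AT3G18790, DOT1, AT4G09240, AT1G47970, AT4G38710 and AT1G19330, the last 3 named after their values were seen.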

Other observations

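Terms of the annotation were ranked by their share of called genes after the values were seen, over 226 biological process terms with 30 to 500 tested genes, and no test was made. Among terms with many genes lower in OX3, where 1.73% of all tested genes were, mRNA processing had 21 of 217 lower and 0 higher. They include SE, a zinc finger protein of microRNA processing, and THO2, a subunit of the mRNA export complex THO. The term mRNA splicing, via spliceosome, had 12 of 112 lower and 0 higher, among them STA1 and PRP40A, both pre-mRNA splicing factors, while its median log2 difference was 0.01. With the length and GC correction 9 and 4 of these genes were lower. For the splicing term the 6 normal phosphate libraries fitted alone gave 8 higher and 11 lower, and voom gave 1 higher and 25 lower. Without WT replicate 2 or OX3 replicate 2, 1 splicing gene was called higher. For mRNA processing the 6 libraries alone gave 0 higher and 30 lower, and voom 0 higher and 36 lower. Without OX3 replicate 3 or OX3 replicate 4 none of either term was called; without WT replicate 4, WT replicate 3, OX3 replicate 2 and WT replicate 2 the counts were 1, 3, 16 and 31 for mRNA processing and 0, 2, 12 and 19 lower for splicing.

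The term flavonoid glucuronidation, which the annotation gives to UDP-glycosyltransferases at large, had 10 of 87 lower and 2 higher, UF3GT being 1 of the higher. The lower ones were UGT73B2, UGT73B3, UGT73B4, UGT73B5, UGT75D1, UGT76B1, UGT84A2, UGT85A2, UGT87A2 and UGT89A2. UGT73B genes of Arabidopsis act on flavonoids and on compounds of defence. UGT84A2 had the largest of these differences at -0.61, and UGT73B5 the smallest adjusted p (-0.40, limma adjusted p = 0.0095). With the length and GC correction 6 were lower. Without WT replicate 2 there were 12, without OX3 replicate 2 there were 5, without WT replicate 3 there were 2, without OX3 replicate 3 there was 1, and without WT replicate 4 or OX3 replicate 4 there were 0.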
